A study of Mus musculus with 30 samples.

Results

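The 6 transcripts of the interleukin-1 (IL-1) family and of tumor necrosis factor followed here across 10 groups of CD11b+ myeloid cells were Il1a, Il1b, Il1rn, Il1r2, Il18 and Tnf. They are 6 of the 18194 genes measured, chosen by symbol, and each stands for its single-symbol probe set with the highest mean over the 30 arrays. CD11b is an integrin chain carried by monocytes, macrophages and neutrophils, and cells positive for it were enriched with magnetic beads. Each group holds 3 arrays of the same whole-genome mouse design. The reference groups were spleens of healthy BALB/c mice and of healthy C57BL/6 mice. Tumor-bearing BALB/c mice gave cells from the spleen and from the infiltrate of C26-GM tumors, described in the labels as a GM-CSF tumor, and from 4T1 tumor infiltrates. C57BL/6 mice gave infiltrates of EL-4 and MCA203 tumors. Bone marrow of BALB/c mice was used fresh, or after 4 days with GM-CSF and IL-6, or after 4 days with GM-CSF and G-CSF.

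GM-CSF, G-CSF and IL-6 are cytokines that drive the growth and differentiation of myeloid cells. The labels do not say whether the 3 arrays of a group came from separate animals or cultures, so p-values measure only the spread between these samples, which may be technical. For the arrays grouped as healthy C57BL/6 spleen, the title and the strain field give C57BL/6 while the source field gives BALB/c. The title and strain were followed. No age was given, and cells from a tumor had no reference other than a spleen, so tumor and organ cannot be told apart in those comparisons.

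IL-1 alpha and IL-1 beta bind the same signalling receptor and set off NF-kB and fever, neutrophil recruitment and emergency granulopoiesis. IL-1 beta and IL-18 are made as precursors that caspase-1 cuts in the inflammasome, whereas IL-1 alpha is active uncut and often acts from dying cells or from the cell surface. The IL-1 receptor antagonist, encoded by Il1rn, occupies the receptor without signalling, and the type 2 receptor, encoded by Il1r2, binds IL-1 as a decoy. TNF is a cytokine of activated macrophages that signals through receptors of its own. An array reads the transcript and not the processed protein.

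Il1a spans chr2:129299609-129310186 of the mouse build GRCm38.p6 and Il1b spans chr2:129364569-129371164, both on the minus strand and with a gap of 54.4 kb between them. Il1rn lies on the same chromosome at chr2:24336860-24351491. Il1r2 lies at chr1:40084692-40125230, Il18 at chr9:50554700-50581841 and Tnf at chr17:35199367-35202007. The 250 bases before the transcript start, as given by RefSeq for this build, are shown for the neighbours Il1a and Il1b, whose levels took separate courses, and for Il1r2, the member with the largest difference between tumor models. Capitals mark TATAAA and TGANTCA (a motif of AP-1 factors) in Il1a, TATAAA in Il1b and ACGTG (the core of the hypoxia response element, also read as its reverse complement) in Il1r2.
Il1a: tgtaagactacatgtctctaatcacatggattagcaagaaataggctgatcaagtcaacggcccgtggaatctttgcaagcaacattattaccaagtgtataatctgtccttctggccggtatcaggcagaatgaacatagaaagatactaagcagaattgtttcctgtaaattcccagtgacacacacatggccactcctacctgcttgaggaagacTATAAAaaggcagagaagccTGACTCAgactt
Il1b: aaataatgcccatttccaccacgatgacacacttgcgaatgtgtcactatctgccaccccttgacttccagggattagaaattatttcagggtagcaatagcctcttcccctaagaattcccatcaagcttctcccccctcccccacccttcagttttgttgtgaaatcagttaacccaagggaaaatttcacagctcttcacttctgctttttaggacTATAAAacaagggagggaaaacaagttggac
Il1r2: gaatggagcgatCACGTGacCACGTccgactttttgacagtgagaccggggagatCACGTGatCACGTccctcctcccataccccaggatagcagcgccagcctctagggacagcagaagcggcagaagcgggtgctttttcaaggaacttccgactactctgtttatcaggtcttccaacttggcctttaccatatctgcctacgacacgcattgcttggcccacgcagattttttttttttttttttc
The windows are chr2:129309973-129310222 on the minus strand, chr2:129371140-129371389 on the minus strand and chr1:40085843-40086092 on the plus strand. Those of Il1a and Il1b lie partly, and that of Il1r2 wholly, inside the annotated span of the gene, since the start used is that of 1 transcript. TATAAA began 32 bases before the start of Il1a and 31 bases before that of Il1b, and was present on either strand in 12.4% of 32817 mouse promoter windows of that length. TGANTCA began 12 bases before the start of Il1a, and 6.75% of windows held it. Il1r2 held 6 matches of ACGTG, the first letters 238, 237, 230, 195, 194 and 187 bases before the start, of which 2 pairs overlap inside CACGTG. That 5-base core was found on either strand in 16.6% of windows. The NF-kB motif (17.6% of windows) and the C/EBP motif TTGCNNAA (9.57% of windows) had no match in the 3 windows shown. A match describes letters only and says nothing of binding.

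Values are log2 RMA expression, on which 1 unit is a factor of 2. A change is the mean of the first group less that of the second, with its standard error from limma. A gene was called when the adjusted p was below 0.05 and the change at least 2-fold. Rose and fell are used only of called genes. Non-overlap of 2 groups is common, and held for 50.2% to 53.2% of all genes between an infiltrate and the healthy spleen of its strain. The share was 36.6% and 40.6% in the cultures against marrow and 6.34% between the cultures. With 3 arrays against 3, no exact permutation p can go below 0.1. The integrin chains Itgam (CD11b itself, 9.15 to 11.61) and Itgb2 (11.15 to 12.90) were high on all 30 arrays. Median array values ran from 4.85 to 5.15, and arrays of a group correlated at 0.945 to 0.996. In the cultures, 4 arrays had a narrow spread of values (interquartile range 2.54 to 2.60) and 2 a wide one (3.28 to 3.37). The third C26-GM tumor array had an actin signal 2.42 higher at the 3′ end than at the 5′ end, against 0.01 to 0.68 on the other 29 arrays. With the third array of each C26-GM group left out, no call of a member changed. Xist, the transcript of the inactive X chromosome of female cells, was low on the 6 C26-GM arrays (5.15 to 6.47) and high on the other 24 (10.06 to 11.12), so the sex signal and the C26-GM groups cannot be told apart.

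Il1a was the member that set 1 tumor apart. It stood at 9.68, 9.88 and 9.40 on the 4T1 tumor arrays, against 5.89, 5.57 and 5.81 in healthy BALB/c spleen. The lowest 4T1 array was above every other array of the series, the next highest of which was an EL-4 tumor array at 6.73. Il1a thus rose by 3.90 ± 0.18 over healthy spleen (adjusted p = 2.73e-15) and stood 4.90 ± 0.18 higher in 4T1 than in C26-GM tumors (adjusted p = 4.93e-17). The C26-GM tumor arrays, at 4.66 to 4.85, lay under 5.12, the 40th percentile of all gene values. Without detection calls it is not known whether Il1a was above background there, and the difference is one of log2 readings and no exact fold of transcript.

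The other infiltrates showed little of that. EL-4 tumor arrays held Il1a at 6.39, 6.73 and 6.30, above the healthy C57BL/6 spleens at 5.40, 4.95 and 5.39, and the change of 1.22 ± 0.18 was called (adjusted p = 5.49e-06). With each array centred on housekeeping genes that change was 0.90 and was not called. MCA203 arrays read 5.37, 5.55 and 5.95 and overlapped the healthy spleens (0.38 ± 0.18, adjusted p = 0.133). C26-GM tumor arrays read 4.85, 4.66 and 4.77, below all healthy BALB/c spleen arrays. Their change of -1.0 ± 0.18 (adjusted p = 7.72e-05) lay at the 2-fold limit itself, and it was lost without the first or the third healthy spleen array (-0.94 and -0.97), without the second tumor array (-0.95) and with housekeeping centring (-0.90). C26-GM spleens, at 5.13, 5.41 and 5.35, did not pass (-0.46 ± 0.18, adjusted p = 0.083).

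Fresh marrow had the lowest Il1a of all groups, at 3.96, 4.07 and 3.98, and every culture array was higher. The GM-CSF+IL-6 cultures held 5.74, 6.12 and 6.39 and the GM-CSF+G-CSF cultures 6.15, 6.28 and 6.17. Over fresh marrow Il1a rose by 2.08 ± 0.18 (adjusted p = 8.51e-10) and 2.20 ± 0.18 (adjusted p = 3.42e-10), and the cultures overlapped each other. The marrow readings also lay under the 40th percentile of 5.12, so these rises are differences of readings from a low level and no exact fold. In the order of means, EL-4 tumor, both cultures, healthy BALB/c spleen, MCA203 tumor and C26-GM spleen did not pass the test against the next in line (adjusted p from 0.118 to 1). Healthy C57BL/6 spleen lay 0.49 ± 0.18 above C26-GM tumor without overlap (adjusted p = 0.035), short of 2-fold.

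**Figure D1:**
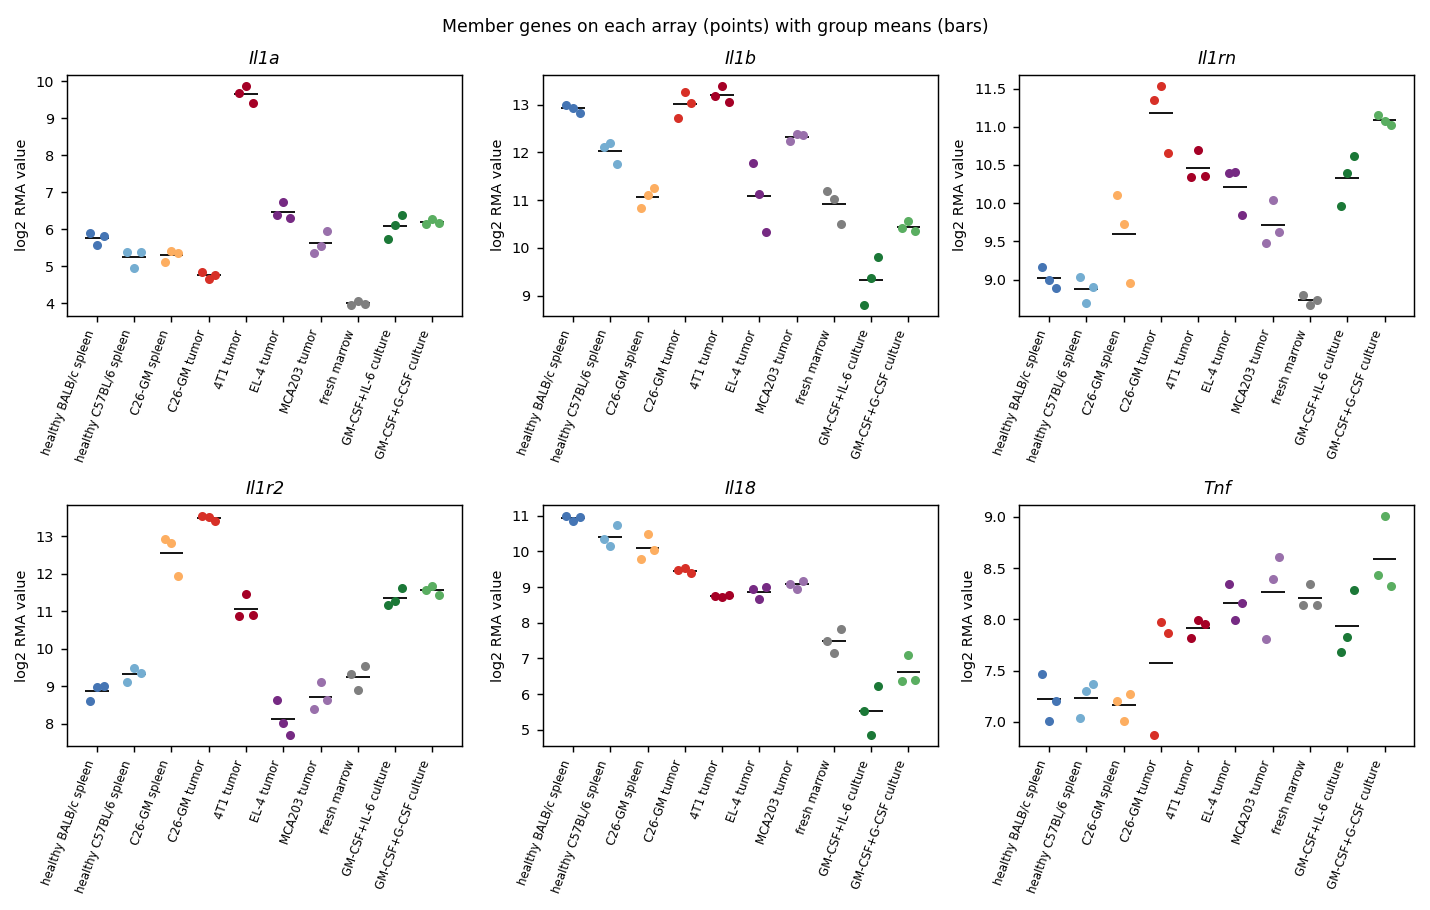
Log2 RMA value of each of the 6 genes on each array (points, 3 per group, colours mark groups) with the group mean (bar); the vertical scales differ between panels and values are not comparable between genes. Il1a stands alone in the 4T1 tumors at 9.40 to 9.88, Il1r2 is highest in C26-GM tumors and spleens, and Il18 is lowest in the cultures.

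Il1b followed another course. It was near its top in healthy BALB/c spleen (13, 12.93 and 12.83), in C26-GM tumors (12.73, 13.26 and 13.03) and in 4T1 tumors (13.17, 13.40 and 13.05), and neither tumor passed the test against that spleen. The change was 0.09 ± 0.26 in C26-GM tumors (95% interval -0.45 to 0.63) and 0.29 ± 0.26 in 4T1 tumors (95% interval -0.25 to 0.83). Cells from C26-GM spleens were lower, at 10.84, 11.11 and 11.26, and overlapped neither the healthy spleens nor the tumors of the same model. Il1b fell there by 1.85 ± 0.26 against healthy spleen (adjusted p = 7.48e-06) and was 1.94 ± 0.26 higher in the C26-GM tumors than in the C26-GM spleens (adjusted p = 4.37e-06).

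In the C57BL/6 models Il1b differed between the tumors. MCA203 arrays lay close together at 12.24, 12.38 and 12.37, whereas EL-4 arrays spread over 11.78, 11.13 and 10.33. Healthy C57BL/6 spleens held 12.12, 12.20 and 11.76, so EL-4 overlapped them and did not pass (-0.95 ± 0.26, adjusted p = 0.00699, short of 2-fold). EL-4 was 1.25 ± 0.26 below MCA203 (adjusted p = 0.00121). Single arrays decided both calls. Without the third EL-4 array the difference from MCA203 was -0.88 and not called. Against the healthy spleens the change was called without the first EL-4 array (-1.29), without the third healthy array (-1.08) and with housekeeping centring (-1.27).

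Il1b was lower in marrow than in healthy BALB/c spleen, at 11.20, 11.03 and 10.51 (-2.0 ± 0.26, adjusted p = 6.6e-07), and lowest in the GM-CSF+IL-6 cultures at 8.81, 9.37 and 9.81. These cultures overlapped no other group and fell by 1.59 ± 0.26 from fresh marrow (adjusted p = 2.53e-05). The GM-CSF+G-CSF cultures, at 10.42, 10.56 and 10.35, overlapped marrow in their range and did not pass (-0.47 ± 0.26, adjusted p = 0.141). Il1b has only 1 probe set on the array, so no second reading of it was possible.

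Il1rn, the antagonist, was low in fresh marrow (8.80, 8.67 and 8.74) and in both healthy spleens (9.16, 9.0 and 8.89 in BALB/c, 9.03, 8.70 and 8.90 in C57BL/6). It was high in every tumor infiltrate. C26-GM tumor arrays read 11.35, 11.54 and 10.66, 4T1 arrays 10.34, 10.69 and 10.36, EL-4 arrays 10.39, 10.41 and 9.85, and MCA203 arrays 9.48, 10.04 and 9.62. No infiltrate overlapped the healthy spleen of its strain. Il1rn rose by 2.17 ± 0.24 in C26-GM (adjusted p = 6.4e-08), 1.45 ± 0.24 in 4T1 (adjusted p = 3.08e-05) and 1.34 ± 0.24 in EL-4 tumors (adjusted p = 0.000104), while MCA203 fell short of 2-fold (0.83 ± 0.24, adjusted p = 0.0109).

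Within the C26-GM model the infiltrate held more Il1rn than the spleen, whose arrays spread over 10.11, 9.73 and 8.95 (1.58 ± 0.24, adjusted p = 2.46e-05). Against fresh marrow Il1rn rose in both cultures, by 1.59 ± 0.24 with GM-CSF+IL-6 (9.97, 10.40 and 10.62, adjusted p = 8.57e-06) and by 2.35 ± 0.24 with GM-CSF+G-CSF (11.16, 11.07 and 11.02, adjusted p = 2.32e-08). The cultures did not overlap each other, though the difference of -0.75 ± 0.24 did not pass (adjusted p = 0.165).

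Il1rn has 3 probe sets, 1451798_at used above, 1423017_a_at and 1425663_at, and they disagreed on some arrays. The third C26-GM tumor array read 10.66 by the first, but 8.07 by 1423017_a_at and 7.72 by 1425663_at, where the other C26-GM tumor arrays read 10.87 and 10.95, and 9.57 and 9.78. Read by 1423017_a_at, Il1rn in C26-GM tumors was 0.98 above C26-GM spleens and not called (adjusted p = 0.211). The same probe set put the GM-CSF+IL-6 cultures at 7.90, 8.84 and 9.33, a difference of 0.69 from marrow that was not called (adjusted p = 0.253), and made the gap between the cultures -2.16 (adjusted p = 0.0177). By 1425663_at both rises were called. The high actin ratio of the third C26-GM tumor array moved with its low readings by 2 probe sets, and its part in them was not tested.

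**Figure D2:**
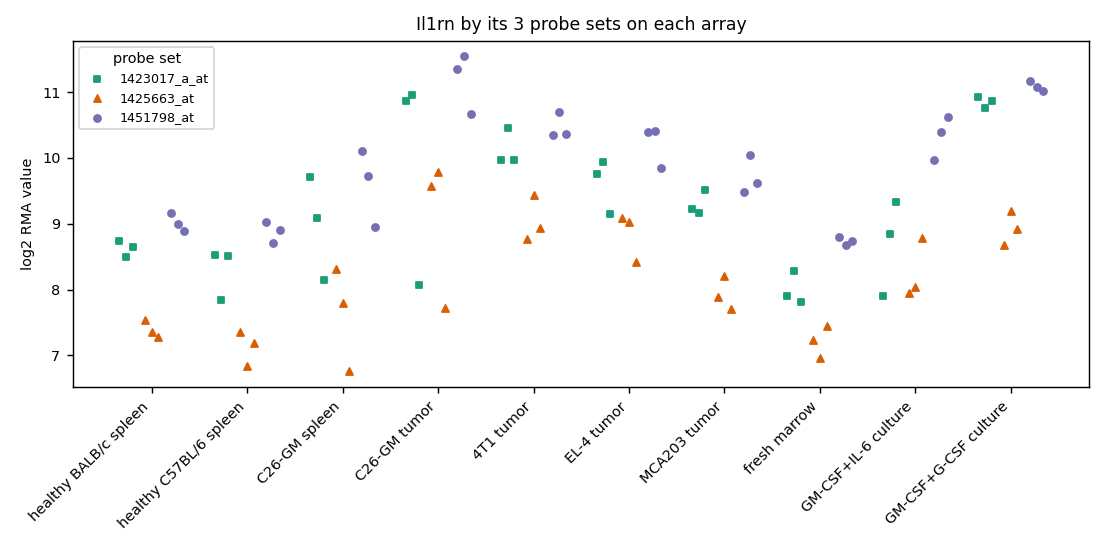
Log2 RMA value of Il1rn on each array by each of its 3 probe sets (symbols), by group. All 3 are higher in 4T1, EL-4 and GM-CSF+G-CSF cells than in their references, while on the third C26-GM tumor array 1423017_a_at (8.07) and 1425663_at (7.72) fall away from the other arrays of that group.

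Il1r2, the decoy receptor, gave the widest contrast between tumor models. It was near 9 in healthy spleens (8.59, 8.97 and 9.01 in BALB/c, 9.10, 9.48 and 9.36 in C57BL/6). C26-GM tumors held 13.55, 13.53 and 13.40 and C26-GM spleens 12.92, 12.83 and 11.94, higher than any array of the other groups. Il1r2 rose by 4.63 ± 0.25 in the tumors (adjusted p = 6.44e-14) and by 3.71 ± 0.25 in the spleens (adjusted p = 2.76e-11), and it is the member called in the same direction at both sites. The infiltrate stood 0.93 ± 0.25 above the spleen (adjusted p = 0.0112), short of 2-fold; without the first or the second spleen array, or with housekeeping centring, it was called (1.11, 1.06 and 1.13).

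In 4T1 tumors Il1r2 lay between, at 10.87, 11.46 and 10.89, a rise of 2.22 ± 0.25 over healthy spleen (adjusted p = 8.6e-08) and 2.42 ± 0.25 below C26-GM tumors (adjusted p = 2.99e-08). The C57BL/6 tumors showed no such rise. EL-4 arrays read 8.64, 8.02 and 7.69, and all lay below the healthy C57BL/6 spleens (-1.20 ± 0.25, adjusted p = 0.000611), although without the third EL-4 array the change was -0.98 and not called. MCA203 arrays, at 8.40, 9.12 and 8.63, overlapped the spleens (-0.60 ± 0.25, adjusted p = 0.0897). The mean effect of the C57BL/6 tumors less that of the BALB/c tumors was -4.32 ± 0.31 (adjusted p = 9.96e-11). Strain and tumor line cannot be told apart in this difference.

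Il1r2 was higher in both cultures than in marrow, where it lay at 9.32, 8.90 and 9.55. GM-CSF+IL-6 cultures reached 11.18, 11.27 and 11.62 (2.10 ± 0.25, adjusted p = 2.96e-07) and GM-CSF+G-CSF cultures 11.58, 11.68 and 11.43 (2.30 ± 0.25, adjusted p = 6.66e-08). The cultures overlapped each other and the 4T1 tumors. In the order of means the groups fell into an upper set (C26-GM tumor, C26-GM spleen, both cultures, 4T1 tumor) and a lower set (healthy C57BL/6 spleen, fresh marrow, healthy BALB/c spleen, MCA203 tumor, EL-4 tumor), with a step of 1.77 ± 0.25 between 4T1 and healthy C57BL/6 spleen (adjusted p = 3.12e-06). Within the lower set no neighbours passed the test (adjusted p from 0.111 to 0.903).

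Il18 was highest in healthy BALB/c spleen (11, 10.86 and 10.98) and lower in all other groups, though it was not called in healthy C57BL/6 spleen (10.36, 10.14 and 10.74) or in C26-GM spleen (9.80, 10.49 and 10.03). The C26-GM spleen difference was -0.84 ± 0.25 (adjusted p = 0.021), and it reached -1.03 and was called without the second C26-GM spleen array. Infiltrates held it at 9.47, 9.53 and 9.39 in C26-GM, 8.76, 8.72 and 8.79 in 4T1, 8.94, 8.66 and 9.01 in EL-4, and 9.10, 8.96 and 9.18 in MCA203. Each infiltrate lay wholly below the healthy spleen of its strain. The falls were 1.48 ± 0.25 (adjusted p = 4.04e-05), 2.19 ± 0.25 (adjusted p = 9.01e-08), 1.54 ± 0.25 (adjusted p = 2.71e-05) and 1.33 ± 0.25 (adjusted p = 0.000174), which makes Il18 the member called in the same direction in all 4 infiltrates.

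Marrow held still less Il18, at 7.48, 7.14 and 7.83, a fall of 3.47 ± 0.25 from healthy BALB/c spleen (adjusted p = 2.57e-11). The GM-CSF+IL-6 cultures were lower again, at 5.53, 4.85 and 6.23 (-1.94 ± 0.25 against marrow, adjusted p = 8.3e-07). GM-CSF+G-CSF cultures, at 6.37, 7.10 and 6.41, overlapped neither and changed by less than 2-fold (-0.85 ± 0.25, adjusted p = 0.00863). It was called with the narrow culture arrays alone (-1.09), an alternative chosen after seeing the data, without the second GM-CSF+G-CSF array (-1.09), without the second marrow array (-1.03) and with housekeeping centring (-1.07).

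Tnf varied least, with group means spanning 1.43, from 7.16 in C26-GM spleen to 8.59 in GM-CSF+G-CSF cultures. Healthy spleens held 7.47, 7.01 and 7.20 in BALB/c and 7.04, 7.30 and 7.37 in C57BL/6. MCA203 arrays read 7.81, 8.39 and 8.61 and lay above all healthy C57BL/6 arrays, and EL-4 arrays at 8.34, 7.99 and 8.16 did too. The MCA203 rise of 1.04 ± 0.24 was called (adjusted p = 0.00158), and the EL-4 change of 0.93 ± 0.24 was not, being under 2-fold (adjusted p = 0.00407; 1.01 and called without the second EL-4 array). The 2 tumors overlapped (-0.11 ± 0.24, adjusted p = 0.803). The MCA203 call was lost without the first healthy C57BL/6 array (0.94), without the second (0.98) or the third (0.86) MCA203 array, and with housekeeping centring (0.95).

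Among the BALB/c groups Tnf passed in none of the comparisons with healthy spleen. The 4T1 arrays, at 7.82, 7.99 and 7.95, were above the spleens by 0.69 ± 0.24 (adjusted p = 0.0309, under 2-fold). C26-GM tumor arrays spread over 6.87, 7.97 and 7.87 and C26-GM spleens over 7.20, 7.01 and 7.27. Fresh marrow, at 8.14, 8.34 and 8.14, was 0.98 ± 0.24 above healthy spleen (adjusted p = 0.00203), just under the 2-fold limit. It was called without the first healthy spleen array (1.10), without the first or the third marrow array (1.01 each), after renewed quantile normalization (1.05) and with housekeeping centring (1.07). The cultures at 7.68, 7.83 and 8.29 and at 8.43, 9.01 and 8.33 did not pass against marrow. No neighbouring groups passed the test in the order of means of Tnf (adjusted p from 0.256 to 1).

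**Figure D3:**
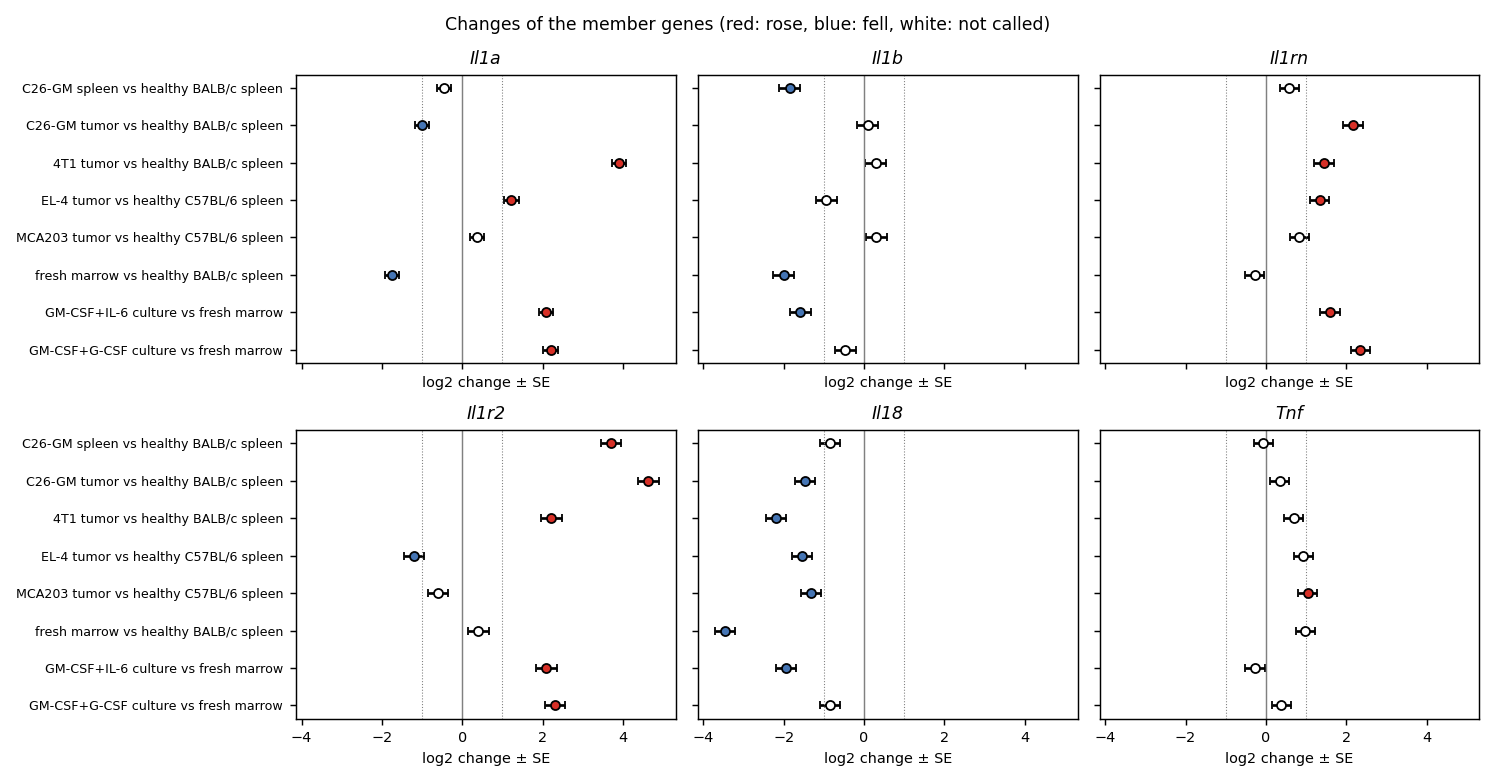
Log2 change (point) with its standard error (bar) for each gene in the comparisons with healthy spleen and with fresh marrow; red points rose, blue points fell, white points were not called, and dotted lines mark a 2-fold change. Il18 is on the left of 0 in every row, Il1rn rises in 3 of 4 infiltrates and in both cultures, and Il1r2 rises in the BALB/c tumors and falls in EL-4.

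Counted by comparison, the members were called as follows, beside the share of all 18194 genes called by the same rule. In C26-GM spleen 2 of 6 were called, Il1r2 up and Il1b down, against 6.14% of genes. In C26-GM tumors 4 of 6 were called against 11.4% of genes, in 4T1 tumors 4 of 6 against 12.3%, in EL-4 tumors 4 of 6 against 10.8% and in MCA203 tumors 2 of 6 against 10.4%. These tumor comparisons share their healthy spleen arrays within a strain. Of these 4 infiltrates, all but MCA203 had a called rise of Il1rn, and all 4 had a called fall of Il18. Between sites of the C26-GM model 2 of 6 were called, Il1b and Il1rn, both higher in the tumor, against 6.16% of genes. Between 4T1 and C26-GM tumors 2 of 6 were called, Il1a and Il1r2 in opposite directions, against 12.9%, and between EL-4 and MCA203 tumors 1 of 6, Il1b, against 5.28%. The difference between C57BL/6 and BALB/c tumor effects was called for 1 of 6, Il1r2, against 4.93% of genes.

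The healthy spleens of the strains differed in 0 of 6 members by limma, with 3 of 6 at an unadjusted p under 0.05, against 1.4% of genes called. The largest of these differences was that of Il1b (-0.89 ± 0.26, adjusted p = 0.0677). Fresh marrow against healthy BALB/c spleen gave 3 of 6, all falls (Il1a, Il1b and Il18), against 13.3% of genes. The GM-CSF+IL-6 cultures gave 5 of 6 against marrow, where 14.1% of genes were called, with Il1a, Il1rn and Il1r2 up and Il1b and Il18 down. The GM-CSF+G-CSF cultures gave 3 of 6, with 13.9% of genes called, and these were the same 3 rises. Both culture comparisons share the marrow arrays.

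The direct comparison of the cultures gave 2 of 6 against 0.654% of genes, with Il1b 1.11 ± 0.26 lower (adjusted p = 0.0241) and Il18 1.09 ± 0.25 lower (adjusted p = 0.0211) in GM-CSF+IL-6 than in GM-CSF+G-CSF. The arrays of the cultures did not overlap in either gene. Both calls were lost when the model held the compared groups alone (adjusted p = 1 for both), and after renewed quantile normalization (adjusted p = 0.13 and 0.386). Leaving out 1 culture array left from 0 to 2 calls.

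Across the 10 group means the members did not form 1 pattern. Il1b and Il18 were the most alike (Pearson r = 0.75), Il1rn and Il1r2 came next (0.62), and Il18 ran against Tnf (-0.73). The neighbours Il1a and Il1b were only weakly alike (0.25). These correlations over 10 groups are descriptions, and the groups share strain, organ and array sets.

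The antagonist and the agonist were set against each other as the Il1rn value less the Il1b value on the same array, which shows unequal change and not relative amount. It was -3.84, -3.94 and -3.94 in healthy BALB/c spleen and had a mean of -3.15 in healthy C57BL/6 spleen. It was higher in all infiltrates than in the healthy spleen of the strain, without overlap, by 2.08 in C26-GM, 1.16 in 4T1, 2.28 in EL-4 and 0.53 in MCA203 tumors. The C26-GM spleens gave a shift of 2.44. The largest shifts were those of the cultures over marrow, 3.18 for GM-CSF+IL-6 and 2.82 for GM-CSF+G-CSF, and no culture array overlapped an array of any other group. The quantity was set as a description of the arrays and was not tested. Between the infiltrates and the healthy spleens 50.2% to 53.2% of all single genes did not overlap either.

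**Figure D4:**
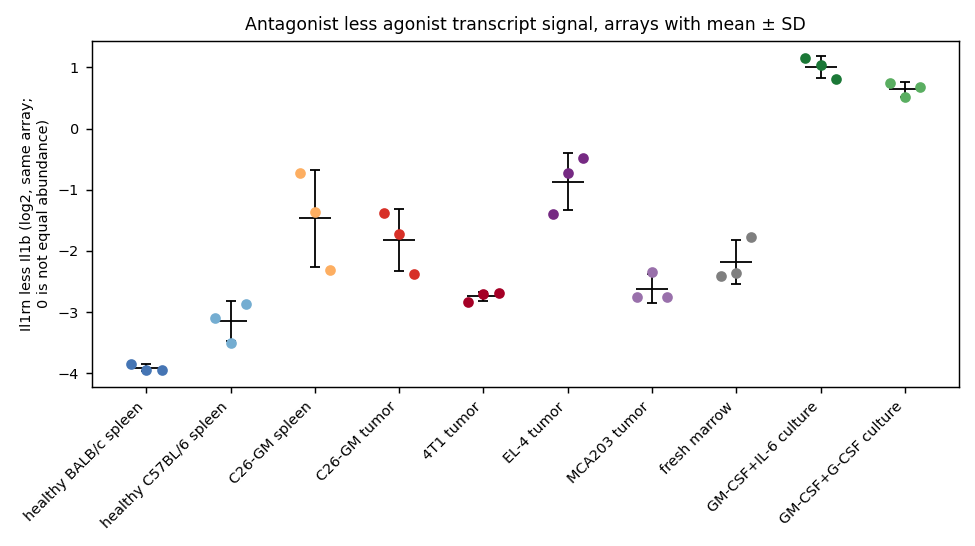
Il1rn less Il1b in log2 units on each array (points) with the group mean and standard deviation (bars, n = 3); 0 does not mean equal abundance, since the genes are read by different probes. Group means run from -3.91 in healthy BALB/c spleen to 1.0 in the GM-CSF+IL-6 cultures, with the infiltrates between.

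The genes most like each member over the group means, among genes spanning at least 1 log2 unit, differed from member to member. Il1a was followed by Mtap, a methionine salvage enzyme (r = 0.93), Cldn4, a tight junction protein of epithelia (0.93), and Rhbdf1, an inactive rhomboid (0.93), all highest in 4T1 tumors. Il1rn was followed by the kinase Nek6 (0.97), the phospholipase Pla2g12a (0.96) and the laminin chain Lamb3 (0.95), and Il18 by the RNA sensor Tlr7 (0.98), Aftph (0.97) and the ubiquitin ligase Marchf1 (0.96). Il1r2 was followed by Ky (0.97), the unfolded protein response factor Xbp1 (0.93) and Il1rl2 (0.91), the IL-36 receptor. Il1rl2 lies 199.4 kb from Il1r2 on chromosome 1, and its means ran from 3.78 in healthy C57BL/6 spleen to 9.34 in C26-GM tumors. For Il1b these were Med7 (0.93), Prpf39 (0.92) and Znrd1as (0.92), and for Tnf Smn1 (0.93), Grb10 (0.90) and Lsm2 (0.90).

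Of 76 other genes listed for the pathway, 65 were measured, and the Il36 ligands, Il1rl1, Nlrc4, Nlrp1b, Irak4, Ripk1, Chuk and Nfkb1 had no single-symbol probe set. Of the 65, 4 rose and 7 fell in C26-GM spleen, 17 rose and 6 fell in C26-GM, 15 and 7 in 4T1, 14 and 5 in EL-4 and 11 and 8 in MCA203 tumors. The share of all genes called in either direction in these 5 comparisons was 6.14%, 11.4%, 12.3%, 10.8% and 10.4%. Between C26-GM sites 18 were higher in the tumor and 0 lower, with 6.16% of all genes called. In the cultures against marrow 10 rose and 9 fell with GM-CSF+IL-6, and 10 rose and 7 fell with GM-CSF+G-CSF, with 14.1% and 13.9% of all genes called. The list was chosen with results known, so nothing is read from these counts beyond its own genes.

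In C26-GM tumors, where Il1r2 rose most, 3 of 7 receptors rose and 0 fell (list median 0.55, all genes 0.11). Those that rose were Il1rap, the accessory chain of the IL-1 receptor (1.68 ± 0.34, adjusted p = 4e-04), Il1r1, the signalling receptor (1.62 ± 0.23, adjusted p = 2.84e-06), and Il18rap of the IL-18 receptor (1.28 ± 0.26, adjusted p = 0.000359). In 4T1 tumors 0 rose and 3 fell, Il18r1 (-2.12 ± 0.26), Il18rap (-1.71 ± 0.26) and the TNF receptor Tnfrsf1b (-1.12 ± 0.24). In EL-4 tumors only Il1rap fell (-1.97 ± 0.34), and in MCA203 tumors Il18rap (-1.50 ± 0.26) and Tnfrsf1b (-1.41 ± 0.24) did. In both cultures Il18rap (-1.96 and -2.18) and Il18r1 (-1.16 and -1.54) fell against marrow. Of all genes, 11.4% were called in C26-GM, 12.3% in 4T1, 10.8% in EL-4 and 10.4% in MCA203 tumors. The shares in the cultures were 14.1% and 13.9%.

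Il18bp, which binds and neutralises IL-18, rose in the C57BL/6 tumors, by 1.61 ± 0.25 in EL-4 and 1.81 ± 0.25 in MCA203. In the cultures it fell, by 1.83 ± 0.25 and 1.67 ± 0.25. The alarmin Il33 rose in C26-GM (1.09 ± 0.26), 4T1 (1.38 ± 0.26) and EL-4 tumors (1.76 ± 0.26).

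Of 12 inflammasome and processing genes 2 or 3 were called in each infiltrate, where 10.4% to 12.3% of all genes were, and a count this small is not set apart from that background. Pycard, the adaptor of inflammasomes, rose in C26-GM spleen (1.21 ± 0.16), C26-GM tumors (1.61 ± 0.16), MCA203 tumors (1.40 ± 0.16) and both cultures (2.06 ± 0.16 and 2.22 ± 0.16). Casp1, the protease that cuts IL-1 beta and IL-18, fell in C26-GM tumors (-1.01 ± 0.22) and fresh marrow (-1.25 ± 0.22). Its C26-GM change lay at the 2-fold limit itself, and the shift of 0.10 by housekeeping centring there takes it under that limit. Among the infiltrates Mefv, the pyrin sensor, fell in 4T1 (-1.38), EL-4 (-1.37) and MCA203 tumors (-1.23). Nlrp3 passed in none of the comparisons with healthy spleen or marrow and was 1.15 ± 0.22 higher in C26-GM tumors than C26-GM spleens. The marrow had the most falls, 5 of 12 with 0 rises, where 13.3% of all genes were called. Of 14 signalling genes at most 2 were called in any comparison.

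Most genes of a list of cytokines and chemokines that IL-1 and TNF are known to induce rose in each infiltrate. The list was chosen with results known, and whether IL-1 or TNF induced these genes here was not tested. Of all genes, 11.4% were called in either direction in C26-GM, 12.3% in 4T1, 10.8% in EL-4 and 10.4% in MCA203 tumors. Of 12 listed cytokines and chemokines 9 rose in C26-GM (list median 2.49, all genes 0.11), 11 in 4T1 (3.34, all genes -0.01), 8 in EL-4 (2.98, all genes 0.02) and 8 in MCA203 tumors (2.38, all genes 0.14), and 0 fell. Cxcl3, a neutrophil chemokine, rose by 9.80 ± 0.21 in C26-GM and 8.47 ± 0.21 in 4T1 tumors, and by 5.21 and 5.51 in EL-4 and MCA203 tumors. Il6 rose by 4.38 ± 0.35 in C26-GM, 5.18 ± 0.35 in 4T1 and 4.01 ± 0.35 in EL-4 tumors and was not called in MCA203. Ccl2, which draws monocytes, rose by 2.79 in C26-GM, 5.82 in 4T1, 5.68 in EL-4 and 6.13 in MCA203 tumors. No C26-GM tumor array read above 14.22 for any gene, so a Cxcl3 change of 9.80 puts healthy BALB/c spleen under 5.12. That is the low limit used for Il1a, so the Cxcl3 changes in BALB/c tumors are differences of readings and no exact fold. Levels of the other listed genes are not given, and their changes are likewise read as differences of log2 readings. In the C26-GM spleens, where Il1b fell, 2 rose and 2 fell, among them the prostaglandin synthase Ptgs2 (-2.94 ± 0.50). Markers of other cells rose in the same infiltrates. Of 6 epithelial markers 1 rose in C26-GM, 5 in 4T1, 5 in EL-4 and 3 in MCA203 tumors, and of 6 fibroblast markers 3, 4, 4 and 4 rose. Their part in the rises of these genes, of Il1rn and of Il33 was not tested.

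In each culture 5 of the 12 rose and 2 fell. Cxcl3 rose by 6.35 ± 0.21 and 6.11 ± 0.21, while Ptgs2 (-4.23 and -4.63) and Osm (-3.02 and -3.16) fell. Of 17 NF-kB subunits and feedback genes 4 rose and 2 fell in each, where 14.1% and 13.9% of all genes were called, the rises being Icam1, Sod2, Relb and Ier3. The falls were Nfkbiz (-3.10 and -3.28) and Zfp36, which destabilises Tnf transcripts (-3.30 and -2.95). Of the same 17, 3 rose and 3 fell in C26-GM tumors, and 2 rose and 1 fell in 4T1 tumors. In EL-4 tumors 3 rose and 1 fell, and in MCA203 tumors 1 rose and 3 fell. The list medians were -0.24, -0.31, 0.12 and -0.28 in that order. Of all genes, 11.4%, 12.3%, 10.8% and 10.4% were called there in either direction. Ier3 rose most of this list, by 4.64 ± 0.21 in C26-GM, 4.04 ± 0.21 in 4T1, 2.88 ± 0.21 in EL-4 and 2.53 ± 0.21 in MCA203 tumors.

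**Figure D5:**
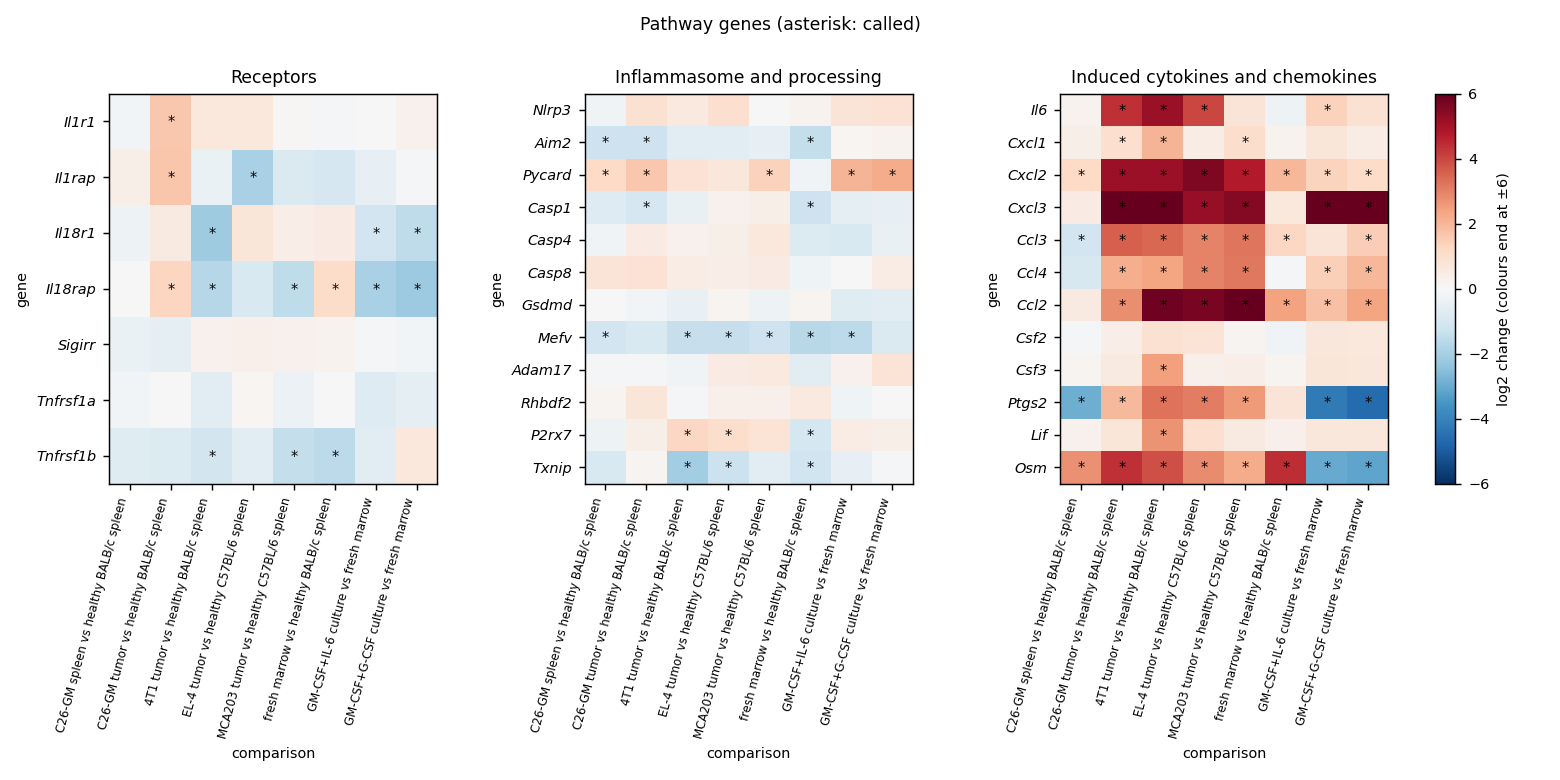
Log2 change (colour, ending at 6 either way) of listed receptors, inflammasome and processing genes, and induced cytokines and chemokines (rows) in the comparisons with healthy spleen and fresh marrow (columns); an asterisk marks a called gene. The right panel is mostly red in the infiltrates, with 8 to 11 of 12 genes called, where 10.4% to 12.3% of all genes were. Of 7 receptors 3 rose in C26-GM tumors and 3 fell in 4T1 tumors. Of 12 processing genes 5 fell in fresh marrow, where 13.3% of all genes were called.

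Markers of other cells moved with several of these results. In bulk samples fewer cells of a type and less RNA per cell cannot be told apart. The mean level of 6 epithelial markers was 8.34 to 8.83 on the 4T1 arrays, where Il1a was high, and 4.69 to 4.80 in healthy BALB/c spleen. In 4T1 tumors 5 of the 6 rose, where 12.3% of all genes were called (Cldn4, named above, is one of the list). On the EL-4 arrays the same mean reached 6.40 to 9.65, with Il1a at 6.30 to 6.73. Fibroblast markers averaged 7.03 to 7.38 in 4T1, 6.84 to 7.30 in EL-4 and 6.20 to 6.95 in MCA203 tumors. In the healthy spleens they averaged 4.39 to 5.00. They averaged 6.13 to 7.10 in fresh marrow and 5.54 to 6.22 in C26-GM tumors, where Il1a was low. The part of epithelial cells and fibroblasts in the Il1a result was not tested.

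Neutrophil markers (10 of 10 measured) averaged 7.21 to 7.96 in EL-4 and 6.60 to 6.92 in MCA203 tumors, where Il1r2 was lowest, against 11.93 to 12.15 in the healthy spleens, 10.67 to 11.42 in C26-GM and 10.05 to 10.79 in 4T1 tumors. They fell in 9 of 10 cases in EL-4 and 10 of 10 in MCA203 tumors, where 10.8% and 10.4% of all genes were called. In marrow, where Il1r2 was also low, they were highest, at 13.03 to 13.10. Monocyte and macrophage markers (9 of 10 measured) averaged 11.02 to 11.11 in healthy BALB/c spleen, 8.64 to 8.88 in marrow and 7.51 to 8.12 in the cultures, where Il18 was lowest. Where Il18 fell in tumors, they were at 9.17 to 9.37 in C26-GM and at 10.89 to 11.65 in 4T1, EL-4 and MCA203. Of these markers 6 of 9 fell in C26-GM tumors, where 11.4% of all genes were called. C26-GM spleens held them at 9.92 to 10.24. T cell markers (6 of 7 measured) averaged 7.47 to 8.10 in EL-4 and MCA203 tumors, where Tnf was high, against 5.76 to 5.95 in healthy C57BL/6 spleen. They were low in GM-CSF+G-CSF cultures (5.33 to 5.59) and fresh marrow (5.81 to 5.89), where Tnf was also high. Over the 10 group means, monocyte and macrophage markers correlated with Il18 at 0.78 and with Il1b at 0.71. Il1r2 correlated with neutrophil markers at 0.45, with T cell markers at -0.80 and with natural killer cell markers at -0.81. The part of these cells in the results for Il1b, Il1r2, Il18 and Tnf was not tested.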

How the data were processed

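CD11b+ cells were measured on 30 Affymetrix mouse arrays, 3 in each of 10 groups taken from the labels. The deposited values are log2 expression, made by the authors with RMA per the submitters' processing notes (version not given in the sources used here). Scanner files were not used here, so no detection calls were used. The number of arrays limits the precision. Of 45101 probe sets 34958 carried 1 symbol in the platform annotation, and the one with the highest mean stood for each of 18194 genes. One limma 3.58.1 model (R 4.3.3) with 10 group means and 20 residual degrees of freedom was fitted to all genes, with Benjamini-Hochberg adjustment within each comparison. Calls needed an adjusted p below 0.05 and a change of at least 2-fold. The fit was tested on simulated data. Arrays of the same replicate number did not deviate alike on average (mean correlation of deviations -0.01 over 135 pairs, single pairs -0.85 to 0.79). This mean runs over all groups, so it cannot show whether C26-GM spleens and tumors came from the same mice. The main model was unpaired.

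The members and gene lists were chosen with earlier results of these data known. Named were all members, up to 4 called genes with the largest change per pathway list and comparison, and the 3 genes most correlated with each member over the group means. Alternatives were other scalings, filters, probe sets and variance priors, the compared groups alone, a replicate block, each array left out, and, chosen after seeing the data, subsets of culture arrays and a term for them. Promoter sequences are from RefSeq, build GRCm38.p6.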

Additional observations from a re-analysis of the deposited data

Results flagged for a closer look

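Some members differed between groups that share a contrast, by a test of the difference itself (limma, Benjamini-Hochberg over all genes). Between sites of the C26-GM model, Il1b was 1.94 and Il1rn 1.58 higher in the tumor than in the spleen on the log2 scale. By probe set 1423017_a_at that Il1rn difference was 0.98 and not called. Between BALB/c tumors, Il1a was 4.90 higher in 4T1 than in C26-GM, and Il1r2 differed by -2.42. Between C57BL/6 tumors, Il1b differed by -1.25 for EL-4 less MCA203, a call lost without the third EL-4 array. Between cultures, Il1b differed by -1.11 and Il18 by -1.09 for GM-CSF+IL-6 less GM-CSF+G-CSF. Both culture calls were lost with the compared groups alone, after renewed quantile normalization and with the wide culture arrays only. The Il1r2 effect of the C57BL/6 tumors less that of the BALB/c tumors was -4.32, where strain and tumor line cannot be told apart. Groups of 3 arrays are too small for a test of single outlying arrays.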

How the results depend on the processing

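Of 84 member changes 35 were called. Under 584 alternatives of these calls 558 stayed called in the same direction, 26 did not pass and 0 turned. Among the 584, the 35 with no minimum fold only relaxed the rule and could not lose a call. The low value filter and the other variance prior lost none. With the replicate number as a block the calls were the same for all 35 called changes.

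Centring on 9 housekeeping genes shifted all changes by -0.32 in EL-4 against healthy spleen, by -0.13 in 4T1 and 0.10 in C26-GM tumors, by 0.20 between C26-GM sites, by -0.23 and -0.24 between tumors, by -0.24 and -0.22 in the cultures against marrow, and by -0.19 in the strain difference. It left 1 member called in MCA203 tumors and gave -0.03 for Il1b in 4T1 against C26-GM tumors. Under this centring 21 counts of pathway genes that rose or fell, by list and comparison, moved and 147 did not. In the direct comparison of the cultures 0 members were called after renewed quantile normalization, with the compared groups only and with the wide culture arrays only. Without probe sets marked x, s or a, which leaves out Il1b, 1 was called there, 1 in C26-GM spleen, 1 between C26-GM sites and 0 between EL-4 and MCA203. With no minimum fold 4 were called between C26-GM sites, 4 between 4T1 and C26-GM tumors and 2 between EL-4 and MCA203. Over all genes the cultures differed in 119 genes, but in 10 after renewed quantile normalization, 2 with the compared groups only, 37 with the wide arrays only, 226 with no minimum fold, and 223, 225 and 64 without the third GM-CSF+IL-6, the second and the third GM-CSF+G-CSF array. Against marrow 2560 and 2520 genes were called in the cultures, 4290 and 4080 with the narrow arrays only, 4288 without the third GM-CSF+IL-6 array and 4075 without the second GM-CSF+G-CSF array. With no minimum fold the count over all genes was more than 1.5 times as large in every comparison, from 226 between cultures to 7227.

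Tnf in GM-CSF+IL-6 cultures against marrow, not called, turned to 0.01 (quantile), 0.08 (wide arrays) and 0.11 (array set term), and Il1a between cultures to 0.11 (wide arrays). Il1rn in 4T1 against C26-GM tumors turned to 0.16 by 1423017_a_at and 0.02 by 1425663_at. With the mean of all probe sets Il1rn less Il1b shifted by 1.63 in C26-GM and 1.25 in 4T1 tumors, -0.38 between these, 2.69 in GM-CSF+IL-6 cultures and -0.08 between cultures. The causes were not tested.

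Leaving out 1 array, members called ranged from 2 to 3 in C26-GM spleen and between C26-GM sites, 3 to 4 in C26-GM tumors, marrow and GM-CSF+G-CSF cultures, 3 to 5 in EL-4 tumors, 1 to 2 in MCA203 tumors, and 0 to 2 between EL-4 and MCA203 and between cultures. Il1rn less Il1b between C26-GM sites ranged from -0.77 to 0.02. Changes that were not called and crossed 0 were Tnf in C26-GM spleen (-0.18 to 0.05), between healthy spleens (-0.10 to 0.13) and between EL-4 and MCA203 (-0.34 to 0.06), Il1b in C26-GM tumors (-0.04 to 0.22) and Il1a between cultures (-0.27 to 0.05).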
